A study of Rattus norvegicus with 20 samples.

Results

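The genes described here encode the oxidative phosphorylation machinery of the inner mitochondrial membrane, measured in blood cells of inbred rats. They were chosen by name, as probe sets with a single symbol starting with Ndufa, Ndufb, Ndufc, Ndufs, Ndufv, Uqcr, Cox4 to Cox8 or Atp5, or equal to Sdha, Sdhb, Sdhc, Sdhd or Cycs, with the probe set of the highest mean kept for each gene. This gave 81 genes of the 14497 with a single symbol, from 91 probe sets. RNA came from 20 male rats of 15 weeks of age, in 4 groups of 5. LEW/Crl (LEW) and WKY/NCrl (WKY) rats had been fed a standard (STD) or a cafeteria (CAF) diet of palatable, energy-dense foods for 7 weeks. All rats were fasted for 9 h before blood was taken. No group carried a transgene or a drug. The labels call the cells PBMC, whereas the methods of the study describe monocytes that adhered to plastic after a density gradient, so the cells were checked against their markers. Each strain is a single inbred genotype, so a strain difference is a difference between these genotypes and not between single genes.

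Oxidative phosphorylation passes electrons from NADH through complex I, or from succinate through complex II, to complex III, cytochrome c and complex IV, which reduces oxygen. Complexes I, III and IV pump protons, and complex V (ATP synthase) uses the gradient to make ATP. Most subunits are encoded in the nucleus, the rest in mitochondrial DNA, and monocytes and macrophages are known to shift between this route and glycolysis when activated. The mitochondrially encoded subunits fall outside the name rule and were not analysed here.

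By complex, the 81 genes comprised 36 of complex I, 4 of complex II, 7 of complex III, 17 of complex IV, 16 of complex V and cytochrome c. Of these, 69 were structural subunits or cytochrome c itself. The name rule also took 3 complex I assembly factors (Ndufaf1, Ndufaf3 and Ndufaf4), which help to build the complex and are no part of it, the ATP synthase inhibitor Atp5if1, the supercomplex factor Cox7a2l, 5 tissue isoforms of complex IV subunits (Cox4i2, Cox6a2, Cox6b2, Cox8b and Cox8c) and 2 pseudogene entries (Ndufs6-ps1 and Cox6c-ps1). Ndufa4 was counted with complex IV, where its protein resides. A probe set annotated to both Ndufa10 and its near copy was left out. Many of these genes have processed pseudogenes, so a probe set may also read RNA of a near-identical copy.

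Nuclear oxidative phosphorylation genes are textbook targets of NRF1, of ETS family factors such as GABP, and of YY1, which bind close to the transcription start. RefSeq promoters (build GRCr8, 250 bases before to 50 after the start) were matched by Entrez gene identifier for 71 of the 81 genes. They were searched on both strands for 1 short exact motif of each factor. The NRF1 core GCGCATGC lay in 11 of the 71 windows (15.5%), against 2.47% of all 33469 promoters and 3.86% of the 12501 promoters of protein-coding genes measured on the array. The ETS motif CCGGAAG lay in 21 (29.6%, against 8.75% and 12.9%). The YY1 motif AAGATGGC lay in 13 (18.3%, against 3.17% and 4.16%). At least 1 of the 3 was found in 34 windows (47.9%), against 13.3% of all promoters and 19.0% of those of measured genes. The share of G and C was 57.0% in the median window of these genes and 58.0% in that of the measured genes. The 3 motifs did not share letters with each other, but the NRF1 core can overlap its own reverse complement, and such pairs were counted once per gene.

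The stretches below show the motif in capitals with its surroundings, read 5′ to 3′ along the gene, for 9 genes that serve as examples of each motif. Of these, Ndufaf4 and Ndufb8 passed a test between the strains, and the others did not pass any. The first 3 hold the NRF1 core or its reverse complement, in the genes of an assembly factor that differed between the strains, of cytochrome c and of the complex II subunit Sdhb.
Ndufaf4, chr5:43401616-43401665, + strand: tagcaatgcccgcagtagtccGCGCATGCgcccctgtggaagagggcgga
Cycs, chr4:80984896-80984945, - strand: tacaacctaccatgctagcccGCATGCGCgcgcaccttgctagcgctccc
Sdhb, chr5:158547746-158547795, + strand: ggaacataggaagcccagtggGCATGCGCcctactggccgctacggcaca

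The next 3 hold the ETS motif or its reverse complement, in the genes of the small complex III subunit Uqcrq, the complex III core protein Uqcrc2 and the complex III hinge protein Uqcrh.
Uqcrq, chr10:38089979-38090021, - strand: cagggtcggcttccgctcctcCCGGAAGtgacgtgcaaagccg
Uqcrc2, chr1:184599191-184599239, + strand: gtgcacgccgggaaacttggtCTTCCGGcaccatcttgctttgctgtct
Uqcrh, chr5:134790938-134790986, - strand: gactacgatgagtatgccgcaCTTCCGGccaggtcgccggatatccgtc

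The last 3 hold the YY1 motif, which in 9 of its 13 genes began downstream of the annotated start, whereas every NRF1 match began upstream. They belong to 3 complex I subunits, of which Ndufb8 showed the strain difference of the lowest adjusted p.
Ndufb8, chr1:253362897-253362926, - strand: cggagaaggtgAAGATGGCggcgtcccggg
Ndufs7, chr7:10110476-10110505, - strand: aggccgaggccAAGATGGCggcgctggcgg
Ndufa3, chr1:74515524-74515553, - strand: tgtccaagaccAAGATGGCtgctagtaagt
A match is a description of the letters and does not show that a factor binds there. Of the 34 genes with a motif, 1 differed between the strains on CAF and 1 on STD, and of the 37 matched genes without one, 2 and 5 did. Of all probe sets, 7.58% differed on CAF and 11.3% on STD. Whether genes with and without a motif differ in this was not tested.

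All values are log2 signals per probe set as deposited, 1 array per rat, and a difference on this scale is WKY minus LEW or CAF minus STD. Values of different probe sets depend on their probes, so a rank by level among probe sets is only a rough guide to RNA amounts. The means of the 81 genes over the 20 rats ran from 5.11 to 12.45, and 74 lay at or above 6.86, the median mean of all 28826 probe sets. The 7 below it were Cox4i2, Cox6a2, Cox8b and Cox8c, known from lung, muscle, heart and testis, together with Cox6c-ps1, Ndufa10 and Ndufaf1. Within a group, the rats of a typical gene had an SD of 0.116, against 0.110 for all probe sets. With 5 rats a group, this gave a median standard error (SE) of 0.072 for a strain difference.

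The arrays correlated at 0.985 to 0.997, and no 2 were identical. Of the defining monocyte genes, Lyz2 (group means 13.24 to 13.42) and Cd14 (12.63 to 12.79) gave high signal in all groups. So did the T cell gene Cd3e, the B cell gene Cd79b, the red cell gene Hbb and the platelet gene Pf4, all above 12. The monocyte gene Csf1r had group means of 11.45 to 11.83. Ccr2 and Cx3cr1, also monocyte genes, were lower in WKY rats on CAF (-1.38 and -1.28, limma adjusted p = 9.6e-07 and 1.4e-04). On STD they were lower as well (-1.01 and -0.95, limma adjusted p = 4.1e-05 and 0.0021). The mean over 17 monocyte markers ran from 10.84 to 11.08 in LEW and from 10.20 to 10.68 in WKY rats on CAF, and from 10.89 to 11.02 and 10.55 to 10.80 on STD, with no overlap. Of the 17, 6 were lower in WKY rats on CAF and none higher, and on STD 7 were lower and 2 higher. In WKY rats, 5 of 15 neutrophil and 8 of 11 NK cell markers were higher on CAF, and 10 and 9 on STD, with 1 NK cell marker (Klrd1) lower on each diet. Of 15 T cell markers, 4 were lower on CAF and 8 on STD, and of 8 platelet markers, 1 and 4 were. Of 13 erythroid markers, 3 were lower and 1 higher on CAF, and 2 and 1 on STD. Of 6 B cell markers, none was called on CAF and 1 was lower on STD. Among all probe sets, 7.58% were called on CAF and 11.3% on STD. In bulk RNA, fewer cells of a type and less RNA per cell cannot be told apart. In 4 arrays (LEW STD rats 2 and 3, WKY STD rat 1 and LEW CAF rat 2) the mean of 12 heat shock genes was at least 11.02, against at most 10.32 in the others.

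The mRNA signals of the machinery were at nearly the same level in CAF-fed WKY and LEW rats, which was the main comparison of the study. A limma fit with Benjamini-Hochberg adjustment over all probe sets called 3 of the 81 genes at an adjusted p under 0.05 (3.70%), when 7.58% of all probe sets were called. The complex I subunit Ndufb8 and the complex IV isoform Cox6b2 were higher in WKY rats (4.24% of all probe sets were), and the complex I subunit Ndufv2 was lower (3.34%). The median difference was -0.012, and that of all probe sets -0.0092, with 35 genes above 0 and 46 below. The largest difference of either sign was 1.35-fold. The 95% interval lay within a change of 1.5-fold for 80 of the 81 genes (98.8%, against 92.7% of all probe sets) and within 1.2-fold for 60 (74.1%, against 63.8%). Centring each array on its median left 2 calls, both higher, and a further quantile normalisation gave 2 higher and 2 lower. Of all probe sets, 2105 and 2189 were then called, in place of 2185.

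Ndufb8 (probe set 10730383) encodes an accessory subunit of the membrane arm of complex I. On CAF it measured 8.27, 8.02, 8.44, 8.44 and 8.52 in the LEW rats and 8.69, 8.77, 8.83, 8.79 and 8.78 in the WKY rats. Every WKY rat was above every LEW rat. The difference was 0.43 (SE 0.074, 95% interval 0.28 to 0.59, adjusted p = 6.1e-04 by limma), that is 1.35-fold. On STD it measured 8.48, 8.33, 8.46, 8.40 and 8.57 in LEW and 8.64, 8.67, 8.48, 8.55 and 8.61 in WKY rats, and these groups overlapped. That difference was 0.14 (95% interval -0.012 to 0.30, limma adjusted p = 0.26). On CAF the difference was 0.35 to 0.48 when any 1 rat was left out, with the lowest value without LEW rat 2, and stayed past the threshold each time. With the mean of the monocyte markers as a covariate it was 0.37 with an adjusted p of 0.193.

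Cox6b2 (probe set 10703970) encodes the testis form of a complex IV subunit that faces the intermembrane space. On CAF it measured 6.90, 6.65, 6.87, 6.99 and 6.79 in LEW and 7.17, 7.02, 7.07, 7.08 and 7.14 in WKY rats, and the groups did not overlap. On STD it measured 6.71, 6.75, 6.56, 6.94 and 6.78 in LEW and 7.12, 6.97, 6.84, 6.94 and 7.14 in WKY rats, with some overlap. The difference was 0.26 on CAF (SE 0.073, limma adjusted p = 0.0329) and 0.26 on STD (limma adjusted p = 0.0249). The call on CAF was lost, at adjusted p of 0.0518 to 0.0877, without LEW rat 2, 3 or 5 or WKY rat 1, 3, 4 or 5, where the difference was 0.21 to 0.26. On STD it was lost, at 0.0550 to 0.0780, without LEW rat 1 or 3 or WKY rat 1 or 5 (0.21 to 0.25). Without the 4 arrays of raised heat shock genes it was 0.21 on CAF (adjusted p = 0.0633) and 0.17 on STD (adjusted p = 0.189). With the monocyte covariate it was 0.32 on CAF (adjusted p = 0.267) and 0.29 on STD (adjusted p = 0.0645), and with the erythroid covariate 0.27 on CAF (adjusted p = 0.0863). On STD the call was also lost with only these 2 groups in the fit (adjusted p = 0.0710), with centred arrays (0.23, adjusted p = 0.0501) and with a further quantile normalisation (0.23, adjusted p = 0.0557). Among all probe sets, 7.8% had groups that did not overlap on CAF, against Ndufb8 and Cox6b2 of the 81 genes here.

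Ndufv2 (probe set 10930307) encodes an iron-sulphur subunit of the part of complex I that takes electrons from NADH. On CAF it measured 10.36, 10.24, 10.24, 10.63 and 10.55 in LEW and 10.34, 10.07, 10.09, 10.07 and 10.14 in WKY rats, where WKY rat 1 lay within the LEW range. On STD it measured 10.43, 10.34, 10.36, 10.38 and 10.50 in LEW and 10.26, 10.16, 9.96, 10.10 and 10.13 in WKY rats, with no overlap. It was lower in WKY rats on both diets, by -0.26 on CAF (SE 0.076, limma adjusted p = 0.0388) and -0.28 on STD (limma adjusted p = 0.0195). The call on CAF was lost, at adjusted p of 0.0577 to 0.117, without LEW rat 1, 4 or 5 or WKY rat 2, 3, 4 or 5, where the difference was -0.27 to -0.20. On STD it was lost without LEW rat 5 (-0.26, adjusted p = 0.0548) or WKY rat 3 (-0.24, adjusted p = 0.0606). On CAF it was also lost with only these 2 groups in the fit (adjusted p = 0.0994), with centred arrays (-0.27, adjusted p = 0.0568) and with the monocyte covariate (-0.35, adjusted p = 0.245).

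**Figure D1:**
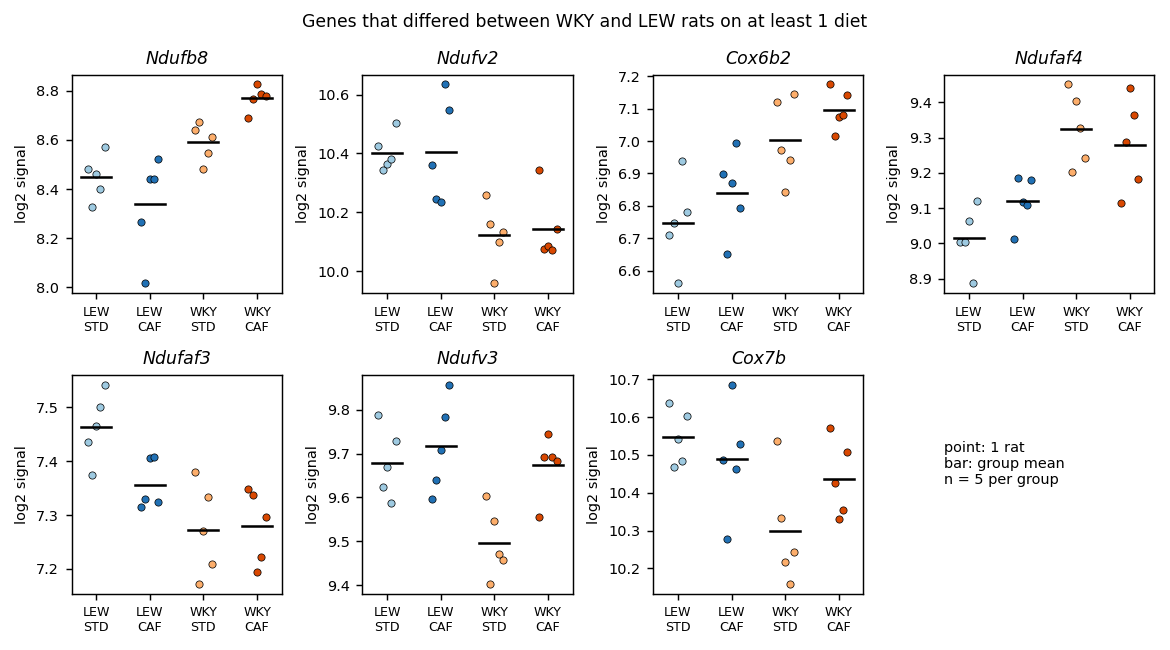
Log2 signal (vertical axes, which do not start at 0) of the 7 genes that differed between the strains on at least 1 diet, in the 4 groups on the horizontal axis. Each point is 1 rat, and each bar is the mean of 5 rats. The LEW and WKY groups of Ndufb8 and Cox6b2 do not overlap on CAF, nor do those of Ndufaf4 and Ndufv2 on STD.

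Of the genes not called on CAF, Uqcrq came closest to the threshold. The complex III subunit Uqcrq measured 9.35, 9.23, 9.47, 9.50 and 9.57 in LEW and 9.38, 9.05, 9.07, 9.20 and 9.21 in WKY rats, a difference of -0.24 (limma adjusted p = 0.0593). Well short of it were Atp5pb, of the peripheral stalk of ATP synthase (0.14, limma adjusted p = 0.134), and the complex I subunit Ndufa3 (-0.25, limma adjusted p = 0.143). At an unadjusted p under 0.05, 6 genes were above and 4 below 0, that is 10 of 81, against 18.5% of all probe sets.

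On STD, where the strains differed in more transcripts, the machinery was again at similar levels, and assembly factors were among the genes that differed. Of the 81 genes, 6 were called (7.41%, against 11.3% of all probe sets), of which Ndufaf4 and Cox6b2 were higher in WKY rats (background 5.88%) and Ndufaf3, Ndufv2, Ndufv3 and Cox7b lower (background 5.38%). The groups did not overlap for Ndufaf4 and Ndufv2, against 8.46% of all probe sets. The median was -0.016 (all probe sets -0.0026), and the largest difference of either sign was 1.24-fold, with the 95% interval of all 81 genes within 1.5-fold. Centring the arrays gave 1 higher and 6 lower, and a further quantile normalisation 1 and 5. Of all probe sets, 3364 and 3346 were then called, in place of 3247. The count was 3 without LEW rat 1, 3 or 5 or without WKY rat 5. On CAF it was 1 without LEW rat 5 or WKY rat 3, 4 or 5.

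Ndufaf4 and Ndufaf3 encode partner assembly factors that act early in building complex I, and their signals differed in opposite directions. Ndufaf4 (probe set 10867944) measured 9.00, 9.00, 9.06, 8.89 and 9.12 in LEW and 9.45, 9.20, 9.40, 9.33 and 9.24 in WKY rats on STD. All WKY rats were above all LEW rats, by 0.31 (SE 0.065, limma adjusted p = 0.00292), a call that held without any 1 rat but not with the monocyte covariate (0.18, adjusted p = 0.138). On CAF it measured 9.01, 9.18, 9.12, 9.11 and 9.18 in LEW and 9.11, 9.29, 9.44, 9.37 and 9.18 in WKY rats (0.16, limma adjusted p = 0.172). Ndufaf3 (probe set 10920301) measured 7.44, 7.37, 7.47, 7.50 and 7.54 in LEW and 7.38, 7.17, 7.27, 7.33 and 7.21 in WKY rats on STD, with 1 WKY rat inside the LEW range. It was lower by -0.19 (SE 0.048, limma adjusted p = 0.0120), also without any 1 rat, but not with the monocyte covariate (adjusted p = 0.0754) or with only these 2 groups in the fit (adjusted p = 0.0583). On CAF the difference was -0.077 (limma adjusted p = 0.441).

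Ndufv3 (probe set 10767821) encodes an accessory subunit beside Ndufv2 in the NADH-binding part of complex I. On STD it measured 9.79, 9.62, 9.67, 9.59 and 9.73 in LEW and 9.60, 9.40, 9.55, 9.47 and 9.46 in WKY rats, and only the highest WKY rat reached the LEW range. The difference was -0.18 (SE 0.056, limma adjusted p = 0.0390), and a second probe set of the gene gave -0.11 (limma adjusted p = 0.344). It was lost, at -0.19 to -0.16 and adjusted p of 0.0636 to 0.107, without LEW rat 1, 3 or 5 or WKY rat 2, 4 or 5. It was also lost with the mean of both probe sets (-0.15, adjusted p = 0.0836), with only these 2 groups in the fit (adjusted p = 0.0744) and with an intensity trend in the variance prior (adjusted p = 0.0511). Cox7b (probe set 10934579), a nuclear-encoded subunit of complex IV, measured 10.64, 10.47, 10.54, 10.48 and 10.60 in LEW and 10.54, 10.33, 10.22, 10.16 and 10.24 in WKY rats. WKY rat 1 was at the LEW level and the other 4 were below every LEW rat. The difference was -0.25 (SE 0.075, limma adjusted p = 0.0354). It was lost, at -0.26 to -0.21 and adjusted p of 0.0531 to 0.0902, without LEW rat 1, 3 or 5 or WKY rat 2, 3, 4 or 5. With the monocyte covariate it was -0.14 (adjusted p = 0.405), with the erythroid covariate -0.24 (adjusted p = 0.0623), and with only these 2 groups in the fit the adjusted p was 0.0565.

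**Figure D2:**
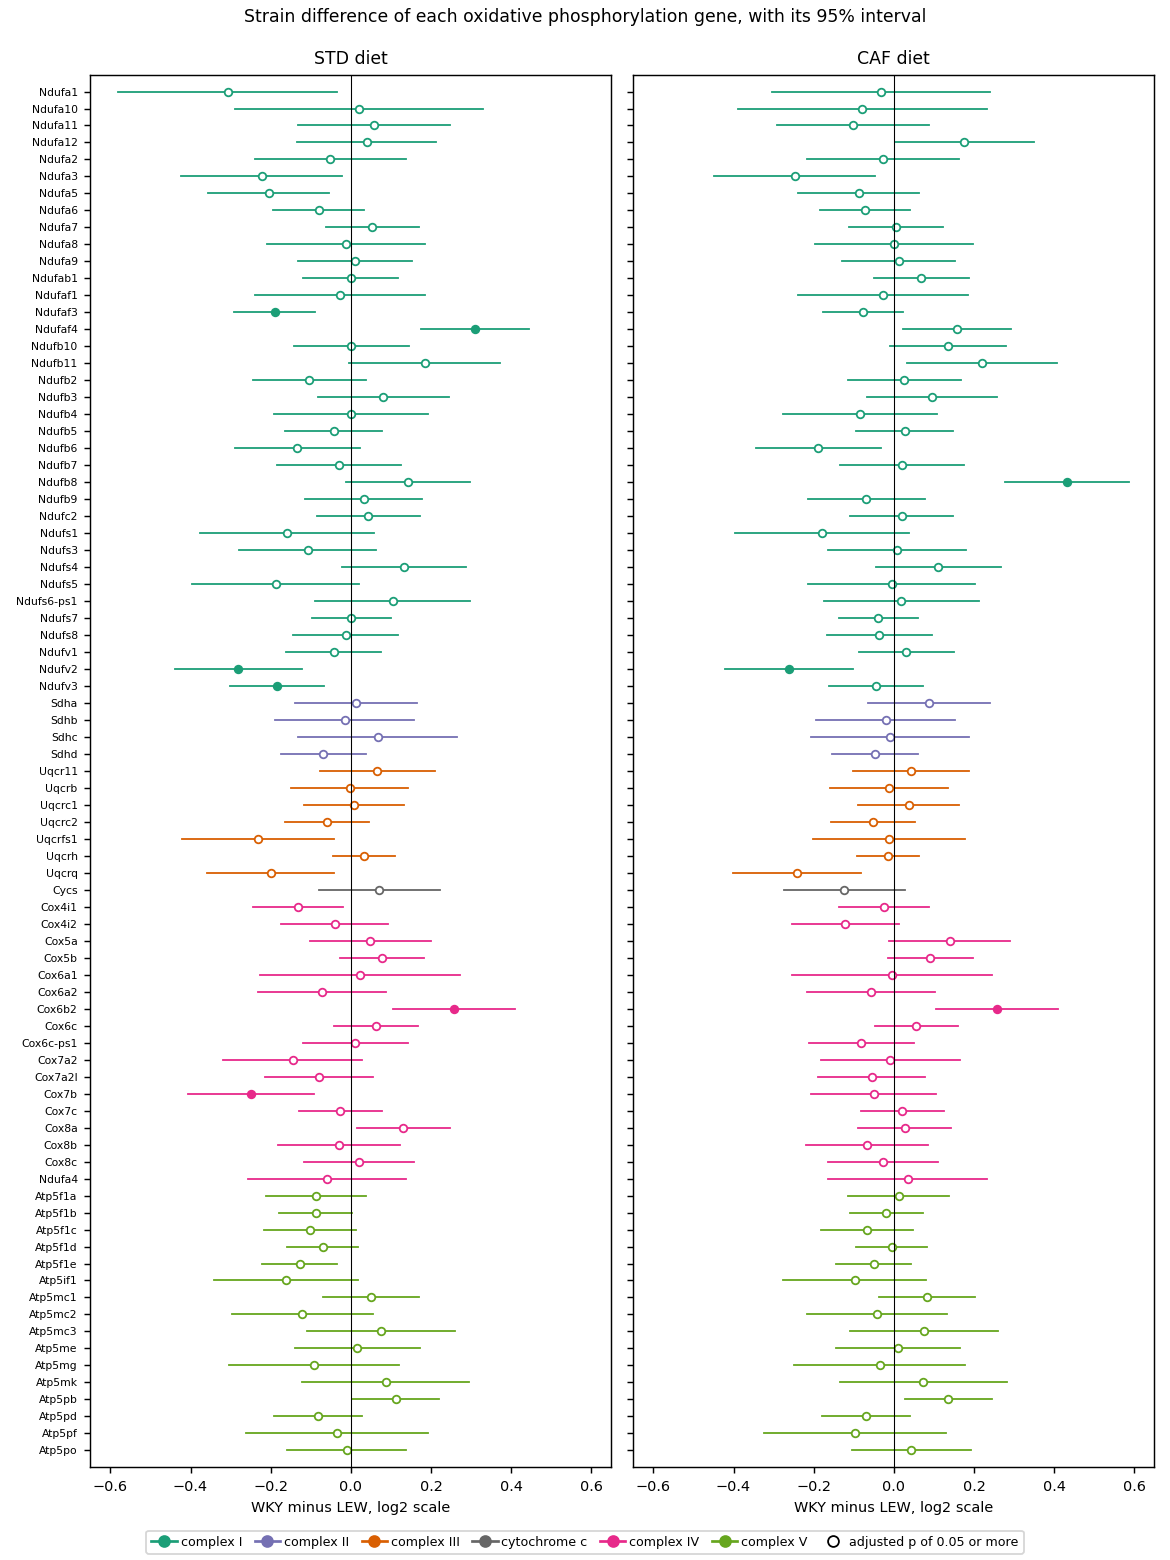
WKY minus LEW difference (log2 scale, horizontal axes) of each of the 81 genes (vertical axis, ordered by complex) on STD (left) and CAF (right). Points are limma estimates from 5 rats a group, lines their 95% intervals, and filled points have an adjusted p under 0.05 (6 on STD and 3 on CAF). All points lie within 0.3 of 0 except Ndufa1 and Ndufaf4 on STD and Ndufb8, which stands at 0.43 on CAF.

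By complex, the differences were small in each and went both ways. On CAF the median was -0.0023 over the 36 genes of complex I (18 above and 18 below 0), -0.015 over the 4 of complex II, -0.013 over the 7 of complex III, -0.0086 over the 17 of complex IV and -0.012 over the 16 of complex V. On STD the medians were -0.013, -0.0016, -0.0031, -0.027 and -0.076 in the same order. In complex V, 11 of 16 genes were below 0 on STD and 9 of 16 on CAF, and none passed the test on either diet. The same held for complexes II and III. The sign was the same on both diets for 59 of the 81 genes (72.8%), against 65.3% of all probe sets, and these 2 comparisons use different rats.

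The genes of the highest mean in each complex give an example of the levels across the groups. Ndufs7, an iron-sulphur core subunit of complex I, had group means of 11.26 in LEW and 11.26 in WKY rats on STD and 11.32 and 11.28 on CAF. Cox6c of complex IV had 12.43, 12.50, 12.41 and 12.47 in the same order, and Atp5f1d, of the central stalk of ATP synthase, had 12.42, 12.35, 12.39 and 12.38. None of these 3 passed the test in any comparison. Cytochrome c (Cycs), which also takes part in apoptosis, had 11.14, 11.21, 11.23 and 11.10, with a range of 10.96 to 11.35 over the 20 rats. Sdhc, a membrane anchor of complex II, had 10.55, 10.62, 10.46 and 10.45, and Uqcrh had 11.90, 11.93, 11.97 and 11.96. Of the tissue isoforms other than Cox6b2, Cox4i2 ranged from 4.82 to 5.33 over all rats, Cox8b from 5.10 to 5.48, Cox8c from 5.78 to 6.14 and Cox6a2 from 6.65 to 7.10, and none differed between the strains at an adjusted p under 0.05.

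The CAF diet made no difference that passed the test in either strain. In LEW rats, 0 of the 81 genes were called by limma (0% of all probe sets), and 3 had an unadjusted p under 0.05, when 5.46% of all probe sets did. These were Uqcrh (0.078), Uqcrc2 (-0.11) and Ndufaf3 (-0.11). The 3 lowest p-values upwards also included Ndufaf4 (0.10) and Ndufa11 (0.15), and downwards Atp5pb (-0.097). In WKY rats, 0 were called (0% of all probe sets), and 4 had an unadjusted p under 0.05, against 8.81% of all probe sets. These were Ndufv3 (0.18, adjusted p = 0.313), Ndufb8 (0.18, adjusted p = 0.494), Cox4i2 (-0.14, adjusted p = 0.544) and Ndufc2 (-0.13, adjusted p = 0.559). Next came Ndufa5 (0.14) and Uqcrc2 (-0.10).

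Ndufb8 was the gene whose STD and CAF groups did not overlap in WKY rats, a pattern of 2.07% of all probe sets, while in LEW rats its diet difference was -0.11. Ndufv3 in WKY rats measured 9.55, 9.69, 9.75, 9.69 and 9.68 on CAF, with the lowest of these inside the STD range. Uqcrc2, a core protein of complex III, was at -0.11 in LEW and -0.10 in WKY rats. The median diet difference was -0.018 in LEW and 0.012 in WKY rats (all probe sets -0.0042 and -0.0084). The 95% interval lay within 1.5-fold for all 81 genes in both strains, and within 1.2-fold for 66 in LEW rats (81.5%, against 73.1% of all probe sets) and 64 in WKY rats (79.0%, against 70.4%). The diet differences had the same sign in both strains for 43 of 81 genes (53.1%, against 52.5% of all probe sets).

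**Figure D3:**
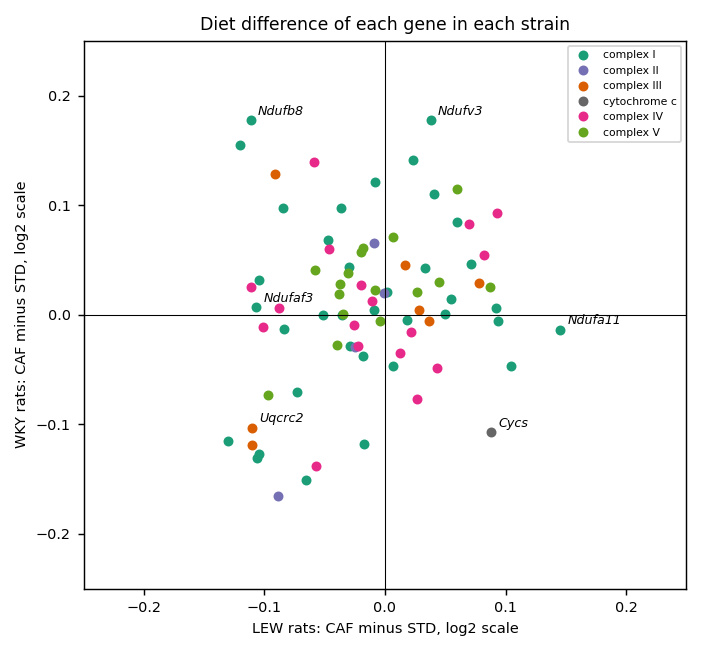
CAF minus STD difference (log2 scale) of each of the 81 genes in LEW rats (horizontal axis) and WKY rats (vertical axis), coloured by complex, each from 5 rats a group. All points lie within 0.18 of 0 on both axes, none passed the test, and 43 have the same sign in both strains.

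Whether the diet acted differently in the strains was tested by the interaction, the diet difference in WKY minus that in LEW rats. No gene passed (0% of all probe sets did), and 1 had an unadjusted p under 0.05, against 5.95% of all probe sets. This was Ndufb8 at 0.29 (SE 0.10, 95% interval 0.070 to 0.51, limma adjusted p = 0.788). The next were Cox7b (0.20) and Ndufv3 (0.14) upwards and Cycs (-0.20), Ndufaf4 (-0.15) and Cox8a (-0.10) downwards, all at an adjusted p over 0.85. The interval lay within 1.5-fold for 80 genes, the exception being Ndufa1 (0.28, interval -0.11 to 0.66), and within 1.2-fold for 37.

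In some rats, most of the genes were shifted the same way. The mean deviation of the subunits of a complex from their 20-rat means ran from -0.17 to 0.18. LEW CAF rat 2 had the lowest value of all rats in 4 of the 5 complexes, at -0.169 for complex I, -0.106 for complex III, -0.161 for complex IV and -0.146 for complex V. In that rat only 4 of the 81 genes were above their group mean, against 47.5% of all probe sets. LEW CAF rat 5 had 71 of 81 above it, LEW STD rat 5 had 68 and LEW CAF rat 4 had 62. The mean over 68 mitochondrial ribosomal protein genes was lowest in LEW CAF rat 2 (8.47) and highest in LEW CAF rat 5 (8.78). LEW CAF rat 2 was also 1 of the 4 arrays with raised heat shock genes (mean 11.43), and the part of these in its values was not tested. The other 3 such arrays had 24, 21 and 60 genes above their group means.

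Leaving out LEW CAF rat 2 gave 1 gene higher and 3 lower in WKY rats on CAF, a median of -0.046, and 20 genes above 0 and 61 below, in place of 35 and 46. The median diet difference in LEW rats then was 0.011, with 48 genes above 0 and 33 below, in place of 32 and 49. The median strain difference on CAF was above 0 without LEW CAF rat 4 (0.010) or 5 (0.013), so the balance of signs turned with single LEW rats. The median diet difference in LEW rats was also above 0 without LEW STD rat 5 (0.0018). Without all 4 such arrays, 4 genes were called on CAF (1 higher and 3 lower) and 6 on STD (1 and 5). The share of all probe sets called in the fits with arrays left out is not given here. Whether the shifts are particular to these genes was not tested.

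**Figure D4:**
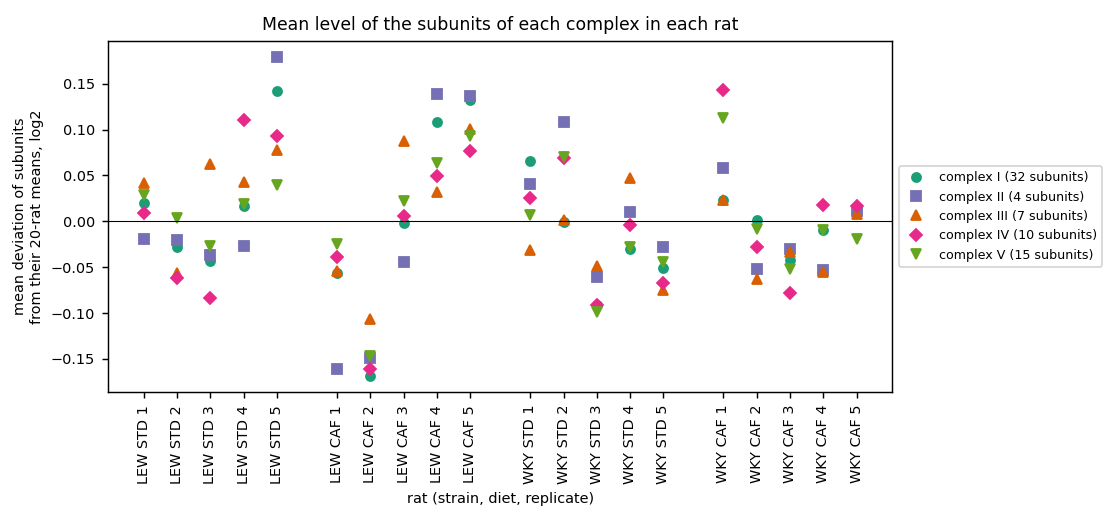
Mean deviation of the structural subunits of complexes I to V from their means over the 20 rats (log2 scale, vertical axis), for each rat (horizontal axis, by strain and diet). Each symbol is 1 complex in 1 rat, and no error is drawn. The 4 groups overlap, and LEW CAF rat 2 lies at or below -0.106 in each complex.

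Other parts of the pathway, taken from lists of known genes, gave few calls as well. Over all probe sets, 7.58% were called on CAF and 11.3% on STD. Of 28 assembly factors outside the name rule, 0 were called on CAF, where Cox20, a chaperone of complex IV, gave -0.27 (adjusted p = 0.0526) and Lyrm7 gave -0.29 (adjusted p = 0.0704), and on STD Cox20 was lower (-0.27) and Sdhaf3, of complex II assembly, higher (0.23). Of 8 further components that feed or organise the chain, 0 were called on CAF, with Gpd2 at 0.29 (adjusted p = 0.0835) and Higd1a at 0.20 (adjusted p = 0.136). On STD Dhodh, which couples pyrimidine synthesis to the chain, was higher (0.23).

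Of 17 genes of the citric acid cycle and pyruvate dehydrogenase, 3 were higher in WKY rats on CAF (as were 4.24% of all probe sets) and none lower. Idh2, the mitochondrial NADP-dependent isocitrate dehydrogenase, was higher by 0.39 (limma adjusted p = 5.0e-04), Ogdh by 0.31 (adjusted p = 0.0453) and Dlat by 0.17 (adjusted p = 0.0203). The median of the 17 was -0.0025. On STD, Dlat was higher (0.16) and Pdha1 lower (-0.20).

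Of 19 genes of mitochondrial biogenesis and mitochondrial DNA expression, the DNA polymerase Polg was higher (0.26, limma adjusted p = 0.00254) and the elongation factor Tefm lower (-0.34, adjusted p = 0.0184) on CAF, as on STD (0.19 and -0.31). The background for this list and the others in this paragraph was 7.58% of all probe sets called on CAF and 11.3% on STD. Of 22 protein import genes, Tomm22, a receptor of the outer membrane, was lower on both diets (-0.24 on CAF and -0.19 on STD), and Timm22 on STD (-0.25). Tomm5 was at -0.25 on CAF (adjusted p = 0.0573). Of 19 genes of antioxidant defence and uncoupling, Ucp2, an inner membrane carrier of leukocytes, was lower on CAF (-0.34, adjusted p = 0.0124) and STD (-0.28), and the ADP/ATP carrier Slc25a4 was at 0.16 on CAF (adjusted p = 0.0887).

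Of the 68 mitochondrial ribosomal protein genes, Mrps26 (0.44) and Mrpl18 (0.49) were higher and Mrps10 (-0.74), Mrpl42 (-0.29) and Mrpl1 (-0.27) lower on CAF. On STD, 2 were higher and 5 lower. The calls in this list were near the 7.58% of all probe sets called on CAF and the 11.3% on STD. No gene of these lists was called between the diets in either strain or in the interaction.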

How the data were processed

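The authors hybridised RNA of each rat to 1 Rat Gene 1.0 ST array and deposited 1 table of log2 signals per probe set, called RMA values in the methods but MAS5 (no version) in the submitters' processing notes. Signals spanned 3.57 to 14.4, with array medians of 6.83 to 6.90, and were used as deposited. Rats had been fasted for 9 h. Groups came from the labels, and replicates are separate rats. Symbols came from the platform annotation. Signal over background and the number of arrays limit the precision.

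Differences were fitted in R 4.3.3 by limma 3.58.1 over all 20 arrays, estimating a mean for each group (degrees of freedom: 16 residual, 3.67 prior). Adjustment for multiple testing (Benjamini-Hochberg) ran across 28826 probe sets, and calls need an adjusted p under 0.05. The code was checked on simulated data. A fold is 2 raised to the log2 difference. Medians and counts over a list are descriptions without a test.

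The members and lists were chosen with earlier results of these data known. Named members are those called, the 3 of lowest p each way for diet and interaction, the highest mean per complex, the 3 lowest means, and the tissue isoforms of complex IV (no probe set was matched to Cox7a1). From each list, the 2 of lowest adjusted p on CAF are named. Other genes named for closeness to the threshold, for their interval or for a call on STD were chosen after their values were seen. Alternatives covered scaling, filter, variance prior, samples, probe set choice, members, covariates, the replicate number as a block and each rat left out. Leaving out 4 arrays was chosen after seeing the data. Batch records were not analysed here.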

Additional observations from a re-analysis of the deposited data

Results flagged for a closer look

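In 14 of 124 checks (11.3%), 1 rat of a group of 5 stood apart, with a gap to its nearest neighbour of more than 0.71 of the group's range. Chance gives about 1 in 20, and the checks share rats. WKY CAF rat 1 stood apart in 4 of them. It was high for Ndufv2 (10.34, others 10.07 to 10.14), for Sdhc (10.77, others 10.34 to 10.40) and for the complex V mean (0.113, others -0.0522 to -0.00840), and low for Ndufa5 (8.22, others 8.42 to 8.50). The Ndufv2 difference on CAF was -0.31 without this rat.

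Ndufa11, an accessory complex I subunit, was high in LEW STD rat 5 (9.12, others 8.75 to 8.84) and low in WKY STD rat 5 (8.74, others 8.94 to 8.98) and WKY CAF rat 3 (8.75, others 8.92 to 8.97). LEW STD rat 5 was also high in the complex II mean (0.179, others -0.0364 to -0.0198). LEW STD rat 2, 1 of the arrays with raised heat shock genes, was low in the complex III mean (-0.0560, others 0.0413 to 0.0780). Cox6a2 was high in LEW CAF rat 2 (7.07, others 6.82 to 6.87) and low in WKY CAF rat 5 (6.65, others 6.84 to 6.92). Cox4i2 was also low in WKY CAF rat 5 (4.82, others 5.01 to 5.08). In WKY STD rat 4, Atp5f1d (12.50, others 12.29 to 12.35) and Cox8b (5.43, others 5.17 to 5.24) were high.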

How the results depend on the processing

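Of 872 alternative values of 37 results, 805 kept their direction and side of the threshold or stayed close to the value given. The other 67 did not, and none of the called values reversed. A median counted as close if it moved by less than 0.063, the SD of the gene mean between rats of a group. Every median was smaller than this, so a turn of its sign was not counted. The 805 also hold genes that were never called. With 1 rat left out, the calls of Cox6b2 and Ndufv2 on CAF and of Cox7b on STD held in 3 of 10 fits each. The 67 all concern strain comparisons: the diet comparisons and the interaction had 0 calls under every alternative and with any 1 rat left out. Of the 81 genes, 0 were called on CAF and 2 on STD with the monocyte marker mean as a covariate, a mean that itself did not overlap between the strains, when 952 and 2889 of all probe sets were called in place of 2185 and 3247. On STD, 2 were called with only the 2 groups compared in the fit, when 2388 of all probe sets were called in place of 3247. Among the 69 structural subunits and cytochrome c, 3 were called on STD. The cause of the changes other than the smaller number of samples or genes was not tested. With 1 rat left out, 1 to 4 were called on CAF and 3 to 7 on STD. Deviations of same-numbered rats of different groups correlated at -0.18 to 0.43 in 30 pairs, of which 9 were over 0.1. Among these, LEW rats 1, 2 and 5 correlated at 0.14, 0.41 and 0.43 between the diets, and rats 3 and 4 at -0.014 and -0.023, so the numbers were not taken to pair the rats. With the replicate number as a block, 3 were called on CAF and 5 on STD, where Ndufv3 was lost (adjusted p = 0.0527). The call of Ndufb8 on CAF was lost with the monocyte covariate and kept under its other alternatives. Signal over background limits what can be seen of the 7 genes below the median level and of Cox6b2, which lay just above it.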

Other observations

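Glycolysis, the other main source of ATP in blood cells, gave more calls than the oxidative phosphorylation genes by share. In WKY rats, of 22 glycolytic genes, 1 was called higher and 3 lower on CAF, against 4.24% and 3.34% of all probe sets. The 1 higher is near that share. On STD, 3 were called higher and 5 lower, against 5.88% and 5.38% of all probe sets. The glucose transporter Slc2a3 was higher on CAF by 0.95 (limma adjusted p = 0.00120) and on STD by 1.21, and the hexokinase Hk2 was lower by -0.43 (limma adjusted p = 4.8e-04) and -0.68. Eno1 (-0.18) and Pkm (-0.25), enzymes of the lower part of the pathway, were also lower on CAF. Whether these shares differ was not tested. In the same WKY rats, 5 of 15 neutrophil markers were called higher on CAF and 10 on STD. Whether this bears on Slc2a3 was not tested.

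Of 71 cytosolic ribosomal protein genes, Rpl30 was higher (0.18) and Rps9 lower (-0.46, limma adjusted p = 7.3e-07) in WKY rats on CAF. On STD, 0 were higher and 8 lower, with Rps9 at -0.48, Rps12 at -0.23 and Rpl8 at -0.18, and the median of the 71 was -0.077. Among all probe sets, 7.58% were called on CAF and 11.3% on STD. Of 12 heat shock genes, 0 were called between the strains on either diet, with Stip1 at -0.33 (adjusted p = 0.412) and Hspb1 at -0.88 (adjusted p = 0.623) on CAF.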
